A study of Rattus norvegicus with 16 samples.

Results

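The vomeronasal receptors were read in the gustatory cortex of rats by 142 probe sets, out of 15209 that the array annotation pairs with exactly 1 gene and 28826 in all. The members are every such probe set whose gene symbol starts with Vom1r or Vom2r. They stand for 134 of 14497 genes, with 87 probe sets for 83 Vom1r genes and 55 for 51 Vom2r genes. A further 30 vomeronasal probe sets are paired with several genes and were left out.

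The arrays came from male Wistar Hola rats that were water restricted for 3 days, trained to drink from pipettes and then given either water, the familiar taste, or 0.1% saccharin, a taste they had not met. Gustatory cortex, a region of the insula that processes taste, was taken 1 h or 3 h after drinking. This gives 4 groups of 4 rats, saccharin and water at each time, with 1 array per rat. The labels give an age of 2 months for all, while the authors' methods state an older range for the rats of all procedures. The sample titles carry numbers from C365 to C380, whose meaning the labels do not give. All 3 h samples have lower numbers than the 1 h samples, so whatever goes with the number cannot be separated from time.

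Vomeronasal receptors are the pheromone receptors of the vomeronasal organ, a sensory epithelium at the base of the nasal septum. The Vom1r genes encode receptors with a short extracellular end that signal through the G protein subunit Gnai2, and the Vom2r genes encode receptors with a large extracellular domain that signal through Gnao1, both towards the cation channel Trpc2. Each vomeronasal sensory neuron uses 1 or a few of these genes, which lie in clusters of similar copies, and the cerebral cortex is not a tissue they are known for. A similar copy may share probes with its neighbour, and the identity of a single member is uncertain to that extent. In tissue RNA, fewer cells of a type and less RNA per cell cannot be told apart.

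The organisation and the promoters of the members are shown beside those of other genes. Of the 134 genes, 129 had their identifier in the RefSeq gene table for GRCr8, where 128 are protein-coding and 1, Vom2r-ps45, is a pseudogene. The identifiers of Vom1r34, Vom1r40, Vom1r51, Vom1r75 and Vom1r105 were absent from it. In the order of that table, 112 of the 128 protein-coding genes had another vomeronasal receptor gene as a direct neighbour. A RefSeq promoter was found for 122 of the 134 genes, 4 of them by symbol alone. The 250 bases before the annotated start are shown here for 3 members that the results turn on and for Slc17a7, the vesicular glutamate transporter of cortical neurons, with each CG dinucleotide in capitals. Vom1r34, matched by symbol alone, lies at chr1:77482243-77482492 on the minus strand, Vom1r94 at chr4:123832382-123832631 on the minus strand, Vom2r13 at chr1:70802599-70802848 on the plus strand and Slc17a7 at chr1:104785955-104786204 on the plus strand of GRCr8.
Vom1r34: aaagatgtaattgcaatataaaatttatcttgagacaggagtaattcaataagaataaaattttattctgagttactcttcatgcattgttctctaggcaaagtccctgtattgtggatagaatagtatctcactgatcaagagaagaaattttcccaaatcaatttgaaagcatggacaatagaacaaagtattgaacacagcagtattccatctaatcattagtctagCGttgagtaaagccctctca
Vom1r94: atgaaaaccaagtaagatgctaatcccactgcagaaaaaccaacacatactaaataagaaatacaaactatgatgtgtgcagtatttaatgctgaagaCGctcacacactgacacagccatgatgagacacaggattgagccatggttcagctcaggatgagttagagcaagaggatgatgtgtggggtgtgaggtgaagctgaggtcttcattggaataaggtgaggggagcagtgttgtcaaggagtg
Vom2r13: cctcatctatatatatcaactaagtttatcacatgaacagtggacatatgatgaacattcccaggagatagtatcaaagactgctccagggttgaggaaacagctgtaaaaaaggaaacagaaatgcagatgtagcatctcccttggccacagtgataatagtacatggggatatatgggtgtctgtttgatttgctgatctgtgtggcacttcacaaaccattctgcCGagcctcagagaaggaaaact
Slc17a7: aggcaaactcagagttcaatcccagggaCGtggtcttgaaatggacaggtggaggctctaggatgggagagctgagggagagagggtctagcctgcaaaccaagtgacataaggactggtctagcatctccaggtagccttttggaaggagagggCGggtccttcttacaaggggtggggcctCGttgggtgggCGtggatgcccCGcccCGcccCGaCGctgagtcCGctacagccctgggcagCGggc
Each of the 3 receptor promoters held 1 CG dinucleotide, against 10 in Slc17a7. Over the 122 member promoters the median was 1, and 49 of them (40.2%) held none, against a median of 6 and a share of 7.52% without any over all 27456 promoters of the table. The tested genes with a promoter, 11946 in number, had a median of 12. The GC content was 36.6% in the median of the members, lower in Vom1r (32.4%) than in Vom2r (38.8%), against 52.0% over all promoters. The letters TATAAA, searched on both strands, were present in 45 member promoters (36.9%) and in 13.1% of all promoters. The 938 olfactory receptor promoters gave like figures, with a median GC content of 34%, a median of 1 CG dinucleotide and TATAAA in 35.9%. These are descriptions of sequence, and a match to these letters is not a site.

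Levels of the receptors were at the bottom of the array. Values are RMA log2 intensities, so that 1 unit is a doubling of the probe signal, and levels of different probe sets depend on the probes as well as on the RNA. The median over the 142 probe sets was 2.54 (interquartile range 2.35 to 2.80), while the median over all tested probe sets was 6.15. Below a log2 value of 3 lay 123 of the members (86.6%), compared with 10.2% of all tested probe sets. The members' median level stood at the percentile 3.47 of all tested probe sets. Vom1r (median 2.47) and Vom2r (median 2.58) lay close together. Other receptor families of sensory epithelia were also low, with medians of 2.75 over 1126 olfactory receptor and 2.88 over 27 taste receptor probe sets. Genes that cortical cells use were read on the same arrays at 11.64 for Snap25, a synaptic vesicle fusion protein, 10.90 for Slc17a7, 9.20 for Gad1, an enzyme of GABA synthesis, and 8.87 for Gfap of astrocytes, so markers of cortical neurons and glia were present.

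**Figure D1:**
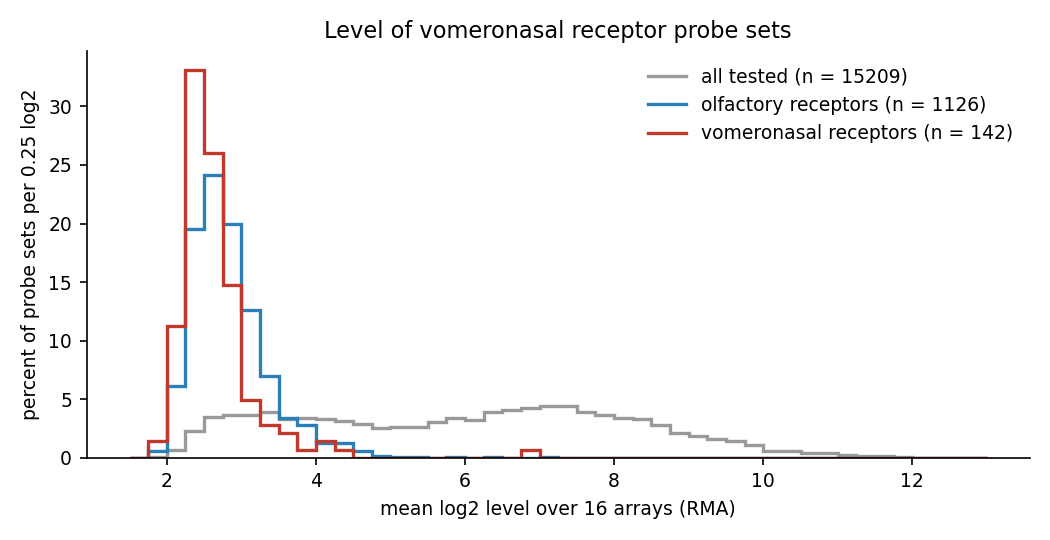
Distribution of the mean log2 level over the 16 arrays (x axis, RMA values) as the percent of probe sets in each step of 0.25 (y axis), for all 15209 tested probe sets, 1126 olfactory receptors and 142 vomeronasal receptors. The receptor families form a narrow peak below 3, and a single vomeronasal probe set lies above the median of all probe sets, 6.15.

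The lowest levels were those of Vom2r29 (1.87), Vom1r89 (1.89), Vom1r75 (2.07) and Vom1r15 (2.15), all far below the range of genes used in cortex. In Vom2r29, the dimmest, the values were 1.84, 1.86, 1.87 and 1.88 at water 1 h, 1.80, 1.87, 1.90 and 2.00 at water 3 h, 1.86, 1.87, 1.87 and 1.88 at saccharin 1 h, and 1.86, 1.86, 1.87 and 1.88 at saccharin 3 h. The 4 groups of Vom2r29 overlapped fully.

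At the other end, 4 probe sets had a mean above 4, which were those of Vom1r34 (6.84), Vom2r44 (4.33), Vom2r35 (4.15) and Vom1r51 (4.08). Vom2r35 ranged from 4.02 to 4.25 over the 16 arrays and Vom1r51 from 3.84 to 4.23, with groups that overlapped in each comparison of taste or time. The bright Vom1r34 probe set, 10704118, was the only member above the median of all tested probe sets. It gave 6.64, 6.84, 6.86 and 7.05 at water 1 h, 6.43, 6.67, 7.05 and 7.12 at water 3 h, 6.42, 6.43, 6.77 and 6.87 at saccharin 1 h, and 6.88, 6.97, 7.02 and 7.36 at saccharin 3 h. The saccharin 3 h arrays all stood above the saccharin 1 h arrays, while the 2 water groups overlapped each other. The annotation pairs Vom1r34 with 2 further probe sets, and these were dim, with means of 2.71 for 10718772 and 2.38 for 10718780. The bright one exceeded them by 4.13 and 4.46 on the log2 scale. Residuals of the bright probe set, taken after removing the group means, correlated with those of the dim ones at r = 0.31 and r = 0.34 over the 16 arrays, which share their normalization. Which of the 3 probe sets reads Vom1r34 was not tested.

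The other genes with several probe sets were closer together, with Vom2r13 (3.44 and 2.30), Vom1r92 (3.20 and 2.41), Vom1r102 (2.69 and 2.23) and Vom2r31 (2.89 and 2.56) differing by 0.33 to 1.14 on the log2 scale. The 3 probe sets of Vom2r56 lay at 3.11, 3.21 and 3.22. Residual correlations between probe sets of the same gene, over 10 pairs in 6 genes, ran from -0.49 in Vom1r102 to 0.43 in Vom1r92.

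Vom2r44 had the largest spread. Its values were 3.88, 3.98, 4.43 and 5.002 at water 1 h, 3.83, 4.09, 4.64 and 5.03 at water 3 h, 3.75, 4.05, 4.10 and 4.50 at saccharin 1 h, and 3.97, 4.63, 4.66 and 4.79 at saccharin 3 h. High and low arrays were present in every group, and the 4 groups overlapped. Its standard deviation within groups was 0.44, against a median of 0.087 over the members. Only 2 other members exceeded 0.2, the bright Vom1r34 probe set (0.239) and Vom2r80 (0.218). The smallest standard deviations were 0.035 for Vom1r59, 0.042 for Vom2r29 and 0.045 for Vom2r15.

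**Figure D2:**
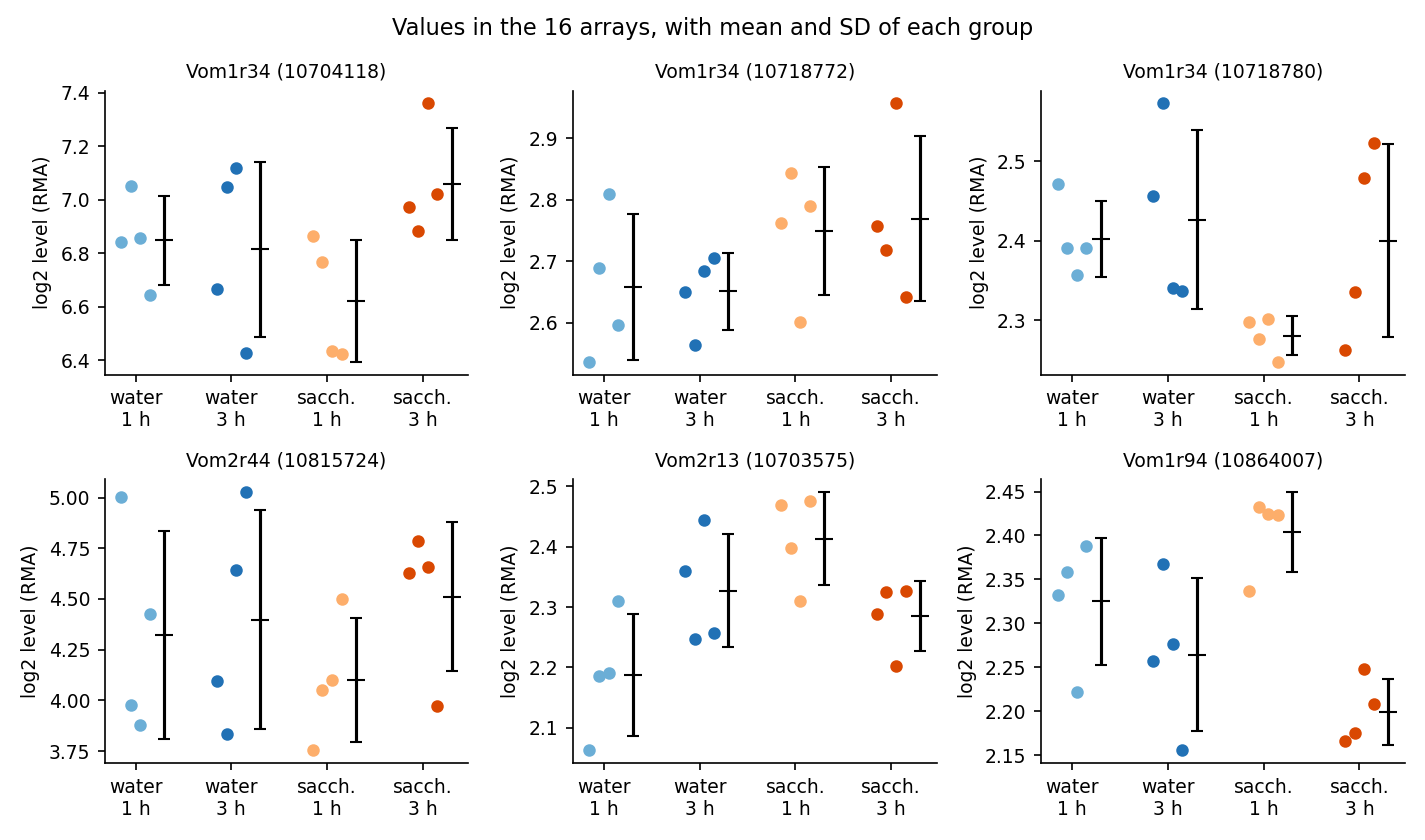
Log2 levels (y axis, RMA values, a scale of its own in each panel) of 6 named probe sets in the 16 arrays, by group (x axis), with points for arrays and a bar beside them for the group mean with its SD. The bright Vom1r34 probe set and Vom2r44 spread over about 1 log2 unit or more, and the dim probe sets over fractions of it.

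Spread within groups was small for most members. The median of 0.087 was near that of all tested probe sets (0.093) and below that of the dim tested probe sets (0.107), which are those at or below the median level of 6.15. The dim tested probe sets are not matched to the members in level. Their median level was 4.04, with 20.4% below 3, against 2.54 and 86.6% for the members. Between 2 and 2.5 the median was 0.080 for 63 members and 0.081 for 390 others, and between 2.5 and 3 it was 0.087 for 58 members and 0.091 for 1026 others. The thinner steps differed more, with 0.120 for 11 members and 0.103 for 1135 others between 3 and 3.5, 0.125 for 4 and 0.113 for 1019 between 3.5 and 4, 0.104 for 3 and 0.118 for 980 between 4 and 4.5, and 0.053 for 2 and 0.083 for 10 below 2. How much RNA, if any, stands behind values this low was not tested, and a small spread here does not show that RNA was measured precisely.

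**Figure D3:**
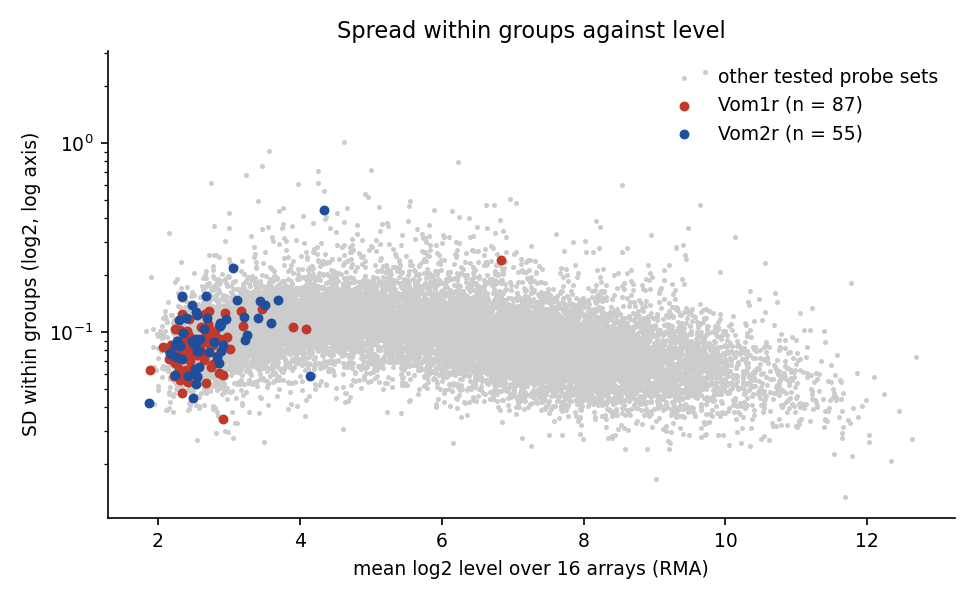
Standard deviation within groups (y axis, log2 units on a log axis) against mean log2 level (x axis) for 87 Vom1r and 55 Vom2r probe sets, over the other tested probe sets in grey. The members lie in the dim left end at a median of 0.087, and Vom2r44 (0.44) and the bright Vom1r34 probe set (0.239) lie above the rest.

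The members did not vary as a block from rat to rat. Across 10011 pairs of members the median correlation of residuals was 0.0045, with 90% of pairs between -0.48 and 0.49, which is a description over arrays that share their normalization. The corresponding medians were 0.041 for olfactory receptors and 0.019 for the dim tested probe sets. Array medians over the 142 members ran from 2.50 to 2.57. The array medians over all probe sets ran from 5.08 to 5.16, the correlations of array pairs from 0.994 to 0.997, and none of the 120 pairs was identical.

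The question put to these genes was how often a comparison of taste or time reaches a given threshold in genes that are not known for cortex. In limma, with the 4 group means fitted over all 16 arrays, 0 members passed a Benjamini-Hochberg adjusted p of 0.05 in any of the 7 comparisons, where the smallest adjusted p was 0.102 for Vom1r94 with time averaged over tastes. At an unadjusted p under 0.05, the 4 simple comparisons held 29 of 568 pairs of probe set and comparison, or 5.11%, near the 5.41% of all tested probe sets. These fell on 25 members (17.6%, against 16.7% of all tested probe sets), of which 22 were met in 1 comparison, Vom1r2 and Vom1r5 in 2 and Vom2r13 in 3, and 110 of the 142 members (77.5%, against 78.6% of all) were met in none of the 7 comparisons. By family, the pairs were 22 in Vom1r (6.32%) and 7 in Vom2r (3.18%). With time averaged over tastes the shares were 10.3% of Vom1r and 1.82% of Vom2r, against 12% of all tested and 9.23% of dim tested probe sets. Elsewhere the families could lie close, with 5.75% of Vom1r and 5.45% of Vom2r for time after water. Whether the 2 families differ was not tested. Since the 4 simple comparisons share groups, they are not independent.

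Between 1 h and 3 h after saccharin, 8 members (5.63%) had an unadjusted p under 0.05, 2 higher and 6 lower at 1 h, against 7.98% of all tested probe sets. The median log2 difference of the members was -0.004, against 0.002 over all. By adjusted p in limma 0 members were called, against 0.348% of all tested probe sets. Groups did not overlap in 5 members (3.52%), against 4.78% of all. The methods' cut-off, which joins an unadjusted p threshold with a minimum fold change, was met by 1 member, the bright Vom1r34 probe set, against 0.75% of all. Its level was lower by 0.44 at 1 h (log2 difference -0.44, SE 0.14, limma adjusted p = 0.355). The exact permutation test of 4 against 4 gave p = 0.0286, the smallest this design allows. Any 2 groups of 4 that do not overlap give that p, so it adds nothing to the lack of overlap. The other 2 probe sets of Vom1r34 differed by -0.02 (SE 0.07) and -0.12 (SE 0.06).

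The smallest p of this comparison belonged to Vom1r94, a member of the Vom1r family near background. It gave 2.34, 2.42, 2.42 and 2.43 at saccharin 1 h and 2.17, 2.18, 2.21 and 2.25 at saccharin 3 h, so that the groups did not overlap. The difference was 0.20 (SE 0.05) on the log2 scale, with a limma p of 8.66e-04 before and an adjusted p of 0.127 after adjustment over 15209 probe sets. After water its values were 2.22, 2.33, 2.36 and 2.39 at 1 h and 2.16, 2.26, 2.28 and 2.37 at 3 h, which overlapped. Vom1r32 followed with 2.58, 2.65, 2.74 and 2.76 at saccharin 1 h and 2.78, 2.81, 2.84 and 2.91 at saccharin 3 h, a difference of -0.15 (SE 0.05, limma adjusted p = 0.367).

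Between 1 h and 3 h after water, 8 members (5.63%) were at an unadjusted p under 0.05, 3 higher and 5 lower at 1 h, against 7.23% of all tested probe sets. With limma 0 were called by adjusted p, against 0.125% of all, and 0 met the methods' cut-off, against 0.572% of all. The groups did not overlap in 4 members (2.82%), against 4.35%. Vom1r30 gave the smallest p, with 2.92, 2.97, 3.02 and 3.02 at water 1 h and 2.67, 2.74, 2.81 and 2.93 at water 3 h. One 3 h array reached into the 1 h range, and the difference was 0.20 (SE 0.06, limma adjusted p = 0.456). In Vom1r101 the groups did not overlap, with 2.44, 2.55, 2.57 and 2.60 at 1 h and 2.63, 2.63, 2.75 and 2.82 at 3 h (difference -0.17, SE 0.06, limma adjusted p = 0.483). For Vom1r57 the difference was 0.18 (SE 0.06), with 2.26 to 2.50 at 1 h and 2.12 to 2.26 at 3 h.

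At 1 h, saccharin against water gave 7 members (4.93%) at an unadjusted p under 0.05, 6 of them lower after saccharin, against 3.06% of all tested probe sets. The dim tested probe sets, which are nearer in level to the members but still brighter in the median, gave 4.71%, and the olfactory receptors 7.37%. By adjusted p in limma 0 members were called, against 0% of all. By the methods' cut-off it was 0 members against 0.0855% of all, and groups did not overlap in 5 members (3.52%), all lower after saccharin, against 1.5% of all. The same held for 2.02% of the dim tested probe sets (104 of 154 lower) and 3.64% of the olfactory receptors (30 of 41 lower). Vom2r13, with its dimmer probe set 10703575, had the smallest p (0.00156 in limma before adjustment). It gave 2.31, 2.40, 2.47 and 2.48 at saccharin 1 h and 2.06, 2.19, 2.19 and 2.31 at water 1 h, groups that met at their edges. The difference was 0.23 (SE 0.06, limma adjusted p = 0.9999), and the brighter probe set of the same gene, 10703570, differed by -0.04 (SE 0.09). Vom1r4 gave 2.26, 2.27, 2.33 and 2.35 after saccharin and 2.37, 2.45, 2.49 and 2.66 after water. These did not overlap, with a difference of -0.19 (SE 0.06, limma adjusted p = 0.9999). Vom1r31 differed by -0.15 (SE 0.06), with groups that overlapped.

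At 3 h, saccharin against water gave 6 members (4.23%), 3 in each direction, at an unadjusted p under 0.05, against 3.37% of all tested probe sets. The counts by adjusted p in limma were 0 members against 0% of all, and by the methods' cut-off 0 members against 0.138% of all. Groups did not overlap in 0 members, against 1.91% of all. The smallest p was that of Vom1r102, at probe set 10857215, with 2.57, 2.61, 2.62 and 2.72 after saccharin and 2.64, 2.72, 2.84 and 2.93 after water (difference -0.16, SE 0.06, limma adjusted p = 0.999). The other probe set of Vom1r102 differed by -0.03 (SE 0.06). Vom1r5 was 0.14 (SE 0.06) higher after saccharin and Vom2r8 differed by -0.19 (SE 0.08), again with groups that overlapped. Leaving out 1 array took all 3 out of the count, with Vom1r5 at 0.09 without C372 of saccharin 3 h, Vom2r8 at -0.11 without C369 of water 3 h and Vom1r102 at -0.11 without the same array.

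For the interaction of taste and time, the difference between the change after saccharin and the change after water, 8 members (5.63%) were at an unadjusted p under 0.05, against 2.96% of all tested probe sets and 4.29% of the dim ones. By adjusted p in limma 0 members were called, against 0% of all. The smallest p values were those of Vom2r13 (interaction 0.27, SE 0.09), Vom1r36 (-0.22, SE 0.08) and Vom1r2 (0.22, SE 0.09), all with a limma adjusted p above 0.99. The interaction draws on all 4 groups, the 3 h arrays included. Vom2r13, at probe set 10703575, was also at an unadjusted p under 0.05 in both comparisons of time. Its high saccharin 1 h and low water 1 h values given above enter here too, so that its small p values rest in part on the same arrays.

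With time averaged over tastes, 10 members (7.04%) were at an unadjusted p under 0.05, against 12% of all tested probe sets and 9.23% of the dim ones. By adjusted p in limma 0 members were called, against 1.01% of all, or 153 probe sets. Vom1r94 (0.13, SE 0.04, limma adjusted p = 0.102), Vom1r30 (0.14, SE 0.05, limma adjusted p = 0.179) and Vom1r15 (-0.12, SE 0.04, limma adjusted p = 0.182) came first. With taste averaged over times, 9 members (6.34%), 7 of them lower after saccharin, were at an unadjusted p under 0.05, against 3.39% of all tested probe sets and 5.09% of the dim ones. By adjusted p in limma 0 members were called, against 0% of all, and Vom1r31 (-0.10, SE 0.04), Vom1r74 (-0.11, SE 0.04) and Vom1r4 (-0.11, SE 0.04) came first.

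**Figure D4:**
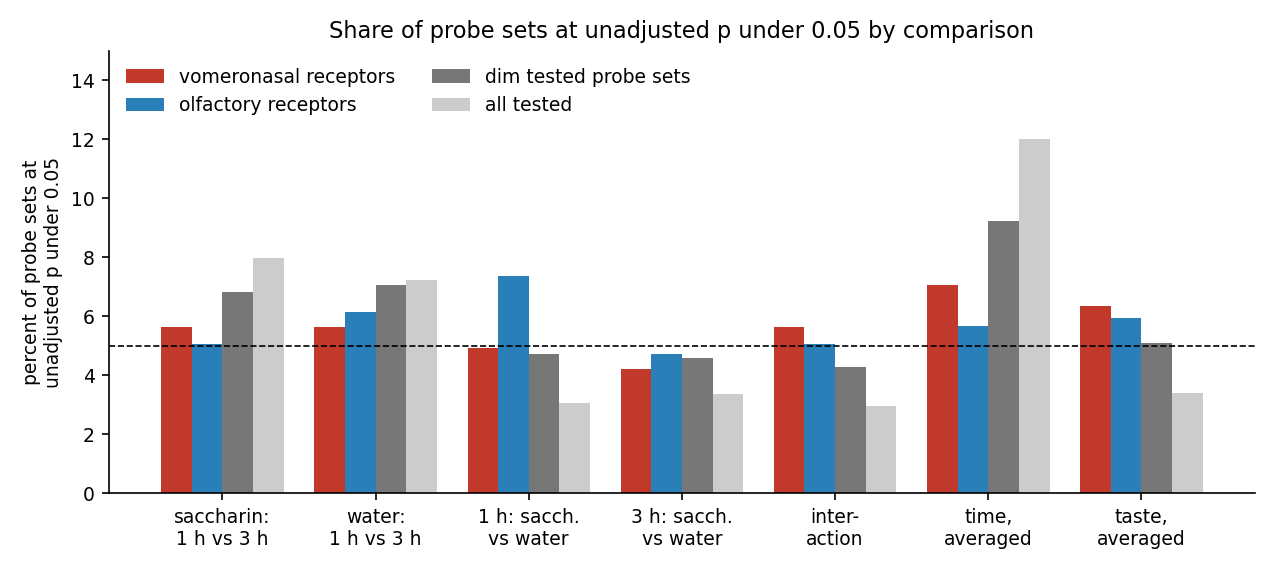
Percent of probe sets at an unadjusted limma p under 0.05 (y axis) in the 7 comparisons (x axis) for 142 vomeronasal receptors, 1126 olfactory receptors, the dim tested probe sets and all tested probe sets, with a dashed line at 5%. The vomeronasal bars lie between 4.23% and 7.04% in every comparison, while those of all tested probe sets run from 2.96% to 12%.

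The shares of the receptors thus ran from 4.23% to 7.04%. In the 3 comparisons of time they were below the share of all tested probe sets, and in the 3 comparisons of taste and the interaction above it. In 6 of the 7 comparisons the share of the dim tested probe sets lay between that of all tested probe sets and that of the members, the exception being taste at 3 h, where it was 4.59%.

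Small differences by taste leaned one way. Averaged over times, 100 of the 142 members were lower after saccharin, with a median log2 difference of -0.024, and 42 (29.6%) were higher. Over all tested probe sets 49.2% were higher after saccharin, over the dim ones 42.6% and over the olfactory receptors 36.8%. At 1 h, 92 members were lower (median -0.029), and at 3 h 83 were (median -0.017). Higher after saccharin at 1 h were 35.2% of members, 51.8% of all, 43.9% of dim and 36.4% of olfactory receptor probe sets. At 3 h these shares were 41.5%, 47.7%, 45.2% and 45.3%. The members' medians in single arrays were 2.546 to 2.574 at water 1 h, 2.510 to 2.537 at saccharin 1 h, 2.528 to 2.575 at water 3 h and 2.497 to 2.532 at saccharin 3 h. The 1 h groups did not overlap in this median and the 3 h groups overlapped. How far the members leaned depended on the scaling and on single arrays. When the deposited values were quantile normalized again, 82 of 142 were lower averaged over times (median -0.010), 81 at 1 h (median -0.011) and 75 at 3 h (median -0.0056). Centring each array on its median left 98 of 142 lower averaged over times (median -0.022), 87 at 1 h and 86 at 3 h. Without C378 of water 1 h the average gave 91 lower (median -0.015) and 1 h gave 82 (median -0.017), and without C375 of saccharin 1 h the median at 1 h was -0.019. At 3 h, 74 of 142 were lower without C368 of saccharin 3 h (median -0.0018) and 77 without C366 (median -0.011). By time, 80 of 142 members were lower at 1 h after saccharin (median -0.0045) and 76 higher at 1 h after water (median 0.012), and with both averaged 71 were higher. Those higher at 1 h were 43.7% after saccharin, 53.5% after water and 50% averaged, against 51.2%, 48.7% and 50.0% of all tested probe sets. The interaction was below 0 in 87 of 142 (median -0.019), that is above 0 in 38.7% of the members against 53.2% of all tested probe sets. Among the dim ones 50.3% were above 0, and among the olfactory receptors 45.0%. The median interaction of the members became -0.012 without C370 or C369, with 76 and 87 members below 0, -0.013 without C376, with 80, and -0.011 when each array was centred on its median.

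**Figure D5:**
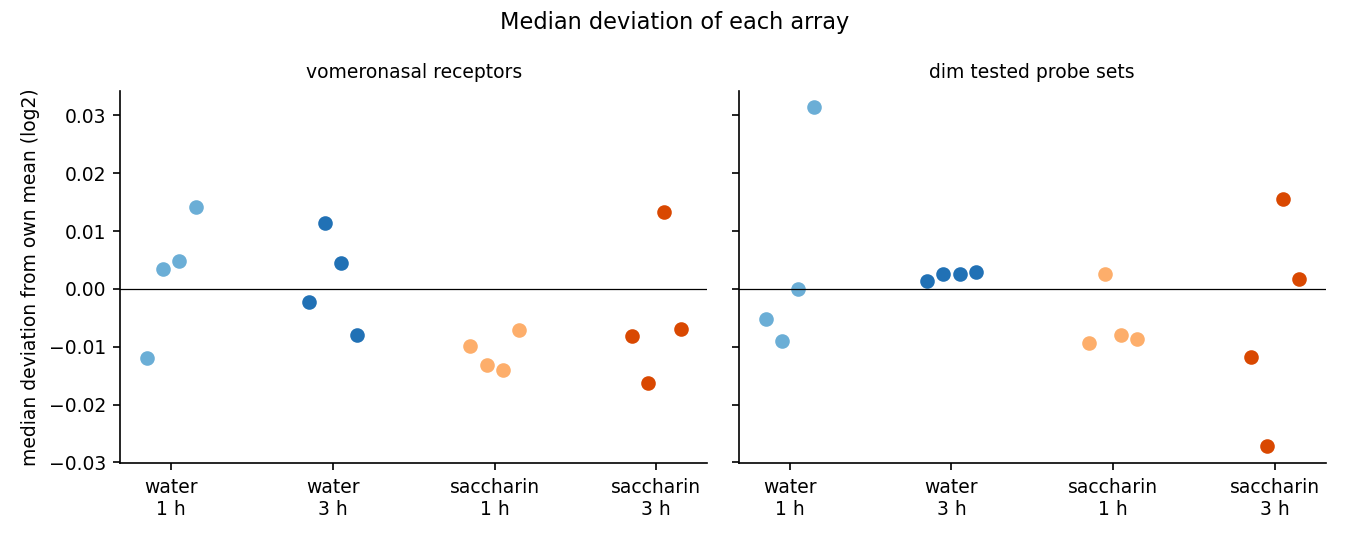
Median deviation of each array from the own mean of each probe set (y axis, log2 units), by group (x axis), for the 142 vomeronasal receptors and for the dim tested probe sets. All 4 saccharin 1 h arrays lie below 0 for the receptors, and array C378 of water 1 h stands highest in both panels, at 0.014 and 0.031.

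Genes linked to vomeronasal or olfactory sensory neurons gave 0 calls by adjusted p in limma. Of a list of 20 such genes, not all of which work with these receptors, 16 had a probe set paired with 1 gene, and Trpc2 was not among them. Their median level was 4.91, and 0 of the 16 passed an adjusted p of 0.05 in limma in any comparison. Over all tested probe sets that share was at most 1.01%, so 0 in a list this short says little. At an unadjusted p under 0.05 between 1 h and 3 h after saccharin stood 3 of the 16, Gng8, Rtp2 and Meis2. This is a higher share than the 7.98% of all tested probe sets. There was 1 of the 16 after water (against 7.23%), 1 with time averaged (against 12%) and 0 in the others. Gnai2 (9.37) and Gnao1 (10.28), G protein subunits that neurons at large use, were bright. Omp, the marker protein of mature olfactory and vomeronasal neurons, was read at 4.30, Gng8, a G protein subunit of immature vomeronasal neurons, at 5.85, and Cnga2 and Cnga4, subunits of the olfactory cyclic nucleotide channel, at 2.92 and 3.25. Gng13, also listed as a marker of these sensory neurons, went the other way, at 7.42, above the median of all tested probe sets (6.15).

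A second list, genes that mark tissues other than brain, gave a further gauge. Of 22 such genes 21 were measured, among them Alb of liver (3.98), Ins2 of pancreatic islets (4.45), Csn2, a milk protein (3.33), and Umod of kidney (3.57). Their median was 3.81, with a range from 2.69 for Csn1s1 to 5.73 for Pnlip, pancreatic lipase. In limma 0 of the 21 passed an adjusted p of 0.05 in any comparison. Over all tested probe sets the share was at most 1.01%, so 0 in a list this short says little. At an unadjusted p under 0.05 stood 0 of the 21 between times after saccharin (against 7.98% of all tested probe sets) and 1 of the 21 between times after water (against 7.23%). By taste there were 0 at 1 h (against 3.06%) and 1 at 3 h (against 3.37%). There were 0 in the interaction (against 2.96%), 2 of the 21 with time averaged (against 12%) and 1 with taste averaged (against 3.39%). Of the 21 genes, 13 lay below 4.33, the level of the brightest member other than Vom1r34.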

How the data were processed

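RNA of 16 gustatory cortex samples was hybridised to Affymetrix RaGene 1.1 ST arrays, 1 rat per array. The authors processed the array files with affy, quantile normalized across all chips and summarised probes by RMA, which gives the deposited log2 values. They were used as deposited. For affy, the sources used here give no version.

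Groups came from the sample titles. Probe sets were named by the array annotation, of which 306 have several genes and 13311 no entry. Group means of the 15209 probe sets paired with 1 gene were estimated by lmFit and eBayes of limma (version 3.58.1, R version 4.3.3), with Benjamini-Hochberg adjustment over all 15209, and 7 comparisons. Single members were also compared by an exact permutation test of 4 against 4 (scipy 1.17.1), whose smallest two-sided p is 0.0286. In the named members its p ran from 0.0286, where groups did not overlap, to 0.0857 for Vom1r5 and Vom2r8 by taste at 3 h. The fit was checked on simulated data. Named members are the 4 highest and 4 lowest means, the 3 largest and 3 smallest spreads, the 3 smallest p in each comparison and genes with several probe sets. Where a listed gene had several probe sets, the one with the highest mean was taken. Members and lists were chosen with earlier results of these data known. Alternatives were another scaling, all probe sets, only bright ones, other spread priors, array weights, the compared arrays alone, 1 probe set per gene, and leaving out each array. Array data hold no read depth, and the number of arrays limits the precision. No genome of the build the study used was at hand, so the probe sets have no coordinates here, and promoters are those of RefSeq for GRCr8.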

Additional observations from a re-analysis of the deposited data

Results flagged for a closer look

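In 7 groups of 4 arrays, over the 36 probe sets named, a single array stood apart from the other 3 by Dixon's criterion. Chance gives about 1 in 20 groups, and here it was 7 of 144 (4.86%), while over all members it was 30 of 568 (5.28%). Array C375 of saccharin 1 h was apart most often, in 7 of those 30.

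Vom2r80 was met in both saccharin groups, with 3.38 in C379 against 2.76 to 2.82 in the other saccharin 1 h arrays and 3.57 in C370 against 3.02 to 3.08 in the other saccharin 3 h arrays. Vom2r56, at probe set 10894401, was 3.43 in C379 of saccharin 1 h, where the others lay between 3.16 and 3.18. In the same group Vom1r74 was 2.86 in C377 against 2.68 to 2.70, and Vom1r94 was 2.34 in C375 against 2.42 to 2.43. Among the water arrays, Vom1r31 was 2.79 in C369 at 3 h against 2.64 to 2.65, and Vom1r102, at probe set 10857217, was 2.09 in C376 at 1 h against 2.27 to 2.31.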

How the results depend on the processing

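The count of 0 members past an adjusted p of 0.05 held in every alternative run, of which the fit on the compared arrays alone covers the 4 simple comparisons and the others all 7. All 475 recomputed values of single members kept their direction and side of that threshold, with adjusted p from 0.064 (Vom1r94, time averaged, without C367) upwards. Of the 21 differences named, 7 had an unadjusted p of 0.05 or more under at least 1 alternative, the highest being 0.148 for Vom2r8 without C369. Counts at an unadjusted p under 0.05 moved more. Keeping only probe sets above the median level left 1 member, Vom1r34, with counts of 1 for time after saccharin, 1 for the interaction and 0 elsewhere, since that filter removes the others. Centring each array gave 5 for the interaction in place of 8. Leaving out 1 array gave 4 to 11 for time after saccharin (5 without C375, 4 without C380), 7 to 12 for time after water, 5 to 12 for taste at 1 h (12 without C373), 4 to 7 for taste at 3 h, 4 to 11 for the interaction (4 without C365, 5 without C372 or C380), 7 to 10 for time averaged and 5 to 13 for taste averaged (5 without C375). Adjusted counts were 0 to 0 there. The members' median level stayed between 2.53 and 2.54 and their median SD between 0.083 and 0.087. Apart from the filter, the members lower after saccharin ranged from 82 to 101 averaged over times, 81 to 100 at 1 h and 74 to 89 at 3 h, and those lower at 1 h than at 3 h from 71 to 85 after saccharin and 59 to 71 after water. No paired analysis was possible because no replicate number is shared between groups. Signals near background limit what a small difference can show.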
